A study of Mus musculus with 6 samples.

Results

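NRF2, encoded by Nfe2l2, and 9 genes known as its antioxidant targets were followed in mouse liver: Nqo1, Gclc, Gclm, Hmox1, Txnrd1, Srxn1, Slc7a11, G6pdx and Osgin1. These 10 genes were listed by name, without the glutathione transferase family, and all 10 were found among the 54446 genes of the deposited table. Of them, 9 passed the filter on low counts and were tested among 15368 genes, and Slc7a11 did not pass. The samples are labelled as liver cells and come from weeks 0, 2 and 7 of treatment, with 2 libraries of poly-A RNA for each. The treatment appears in the title as MET/CAT with SB transposase, an enzyme that inserts DNA carrying its terminal repeats into chromosomes. The labels leave CAT unexpanded, do not give the route or the cells that carried the DNA, and do not say whether week 0 was untreated. No untreated mice of weeks 2 and 7 were among the 6 libraries, so time and treatment cannot be told apart. Week 0 replicate 1 is labelled as a mixed line of FVB/N and C57BL/6. In the other labels the number after C57BL/ is different in each sample, so that their background is unsure. Nothing in the labels says that the 2 libraries of a week came from separate animals, so the p-values measure only the spread between these samples, which may be technical. All samples are bulk RNA, in which fewer cells of a type and less RNA per cell cannot be told apart.

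In unstressed cells NRF2 is held by KEAP1, which directs it to degradation. Oxidants and electrophiles modify KEAP1, and NRF2 then accumulates, pairs with a small MAF protein in the nucleus and binds antioxidant response elements near its target genes. Its targets supply glutathione and NADPH, keep thioredoxin and peroxiredoxin reduced, detoxify quinones and break down heme. In liver this programme is known for defence against toxic drugs and bile acids. Because NRF2 is largely controlled through its degradation, its own transcript need not follow its activity.

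Library totals ran from 49353453 to 58434358 deposited counts. Xist counts were 10 and 15 in the week 0 libraries, 13236 and 12804 in those of week 2, and 0 in both of week 7. The summed CPM of 4 Y-linked genes (Eif2s3y, Ddx3y, Uty and Kdm5d) was 96.2 and 96.0 at week 0, 0 in both week 2 libraries, and 88.1 and 102 at week 7. By these genes, week 2 is female-typed and weeks 0 and 7 are male-typed, so a comparison with week 2 is of sex and time together. The 5 hepatocyte markers measured summed to 92138 and 92056 CPM at week 0, where CPM are counts per 1000000 after TMM scaling (trimmed mean of M-values), to 120807 and 113958 at week 2, and to 80582 and 79775 at week 7. Most of this sum was Alb, which averaged 65490, 95488 and 54244 CPM at weeks 0, 2 and 7, where Apoa1 averaged 12792, 8532 and 12986. At week 2 against week 0, 2 of the 5 were higher and 2 lower (80% called, against 18.6% of all genes tested). At week 7 against week 0, 1 was higher and 2 lower (60%, against 13.8%).

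Sequence near the transcription start is shown for Srxn1 and Nqo1, whose levels changed between weeks, and for the listed genes in which a motif of interest was found. Windows of 250 bases before to 50 bases after each start (RefSeq, build GRCm38.p6) were found for 8 of the 10 genes, 10 windows in all with 3 for Txnrd1, and for neither Gclc nor Hmox1. Both strands were searched for the core TGACNNNGC and for the AP-1 type site TGAGTCA, which reads TGACTCA on the other strand. Of 32851 windows of this length, 4071 held the core (12.4%), 1709 held the AP-1 type site (5.2%) and 311 held both (0.947%). The motifs can overlap each other, and a match is a description of letters only. Among the listed genes the core stood in a window of 5 and the AP-1 type site in a window of 2, with 6 genes holding either and Srxn1 holding both. The following stretches of 250 bases before the start run 5′ to 3′ along the gene, with capitals for the AP-1 type site, from chr2:152105274-152105523 (plus strand) for Srxn1, chr8:119436897-119437146 (plus strand) for Osgin1 and chr8:107403206-107403455 (minus strand) for Nqo1.
Srxn1: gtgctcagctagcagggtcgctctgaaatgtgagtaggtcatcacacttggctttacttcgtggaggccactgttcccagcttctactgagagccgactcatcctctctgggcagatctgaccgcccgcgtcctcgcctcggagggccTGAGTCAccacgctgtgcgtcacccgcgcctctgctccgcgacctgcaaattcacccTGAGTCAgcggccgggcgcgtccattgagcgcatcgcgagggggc
Osgin1: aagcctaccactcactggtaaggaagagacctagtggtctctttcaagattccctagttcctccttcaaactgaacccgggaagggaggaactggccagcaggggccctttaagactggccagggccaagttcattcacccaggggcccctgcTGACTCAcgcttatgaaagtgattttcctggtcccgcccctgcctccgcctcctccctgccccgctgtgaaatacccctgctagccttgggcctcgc
Nqo1: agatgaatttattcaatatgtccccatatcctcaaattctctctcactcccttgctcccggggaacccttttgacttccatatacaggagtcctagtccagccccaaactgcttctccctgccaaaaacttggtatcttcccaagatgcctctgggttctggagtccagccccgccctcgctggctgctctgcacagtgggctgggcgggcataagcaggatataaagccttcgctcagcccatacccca
The Srxn1 stretch has its AP-1 type sites 102 and 45 bases before the start, and its core lies 29 bases after the start, outside the stretch shown. The Osgin1 stretch has its site 97 bases before the start. The Nqo1 window has neither motif, as has the Slc7a11 window. Stretches of 29 bases around the core, which is in capitals on either strand, were read from chr2:75704885-75704913 (minus strand) for Nfe2l2, chr3:122245413-122245441 (plus strand) for Gclm, chr10:82859104-82859132 (plus strand) for the second Txnrd1 start and chrX:74428919-74428947 (minus strand) for G6pdx.
Nfe2l2: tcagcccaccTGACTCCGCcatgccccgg
Gclm: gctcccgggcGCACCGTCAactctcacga
Txnrd1: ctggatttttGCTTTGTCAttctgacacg
G6pdx: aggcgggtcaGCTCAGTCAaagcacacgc
The core began 240 bases before the start in Nfe2l2, 134 in Gclm, 92 at the second Txnrd1 start and 57 in G6pdx, and it read on the strand opposite to the gene in all of these but Nfe2l2.

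**Figure D1:**
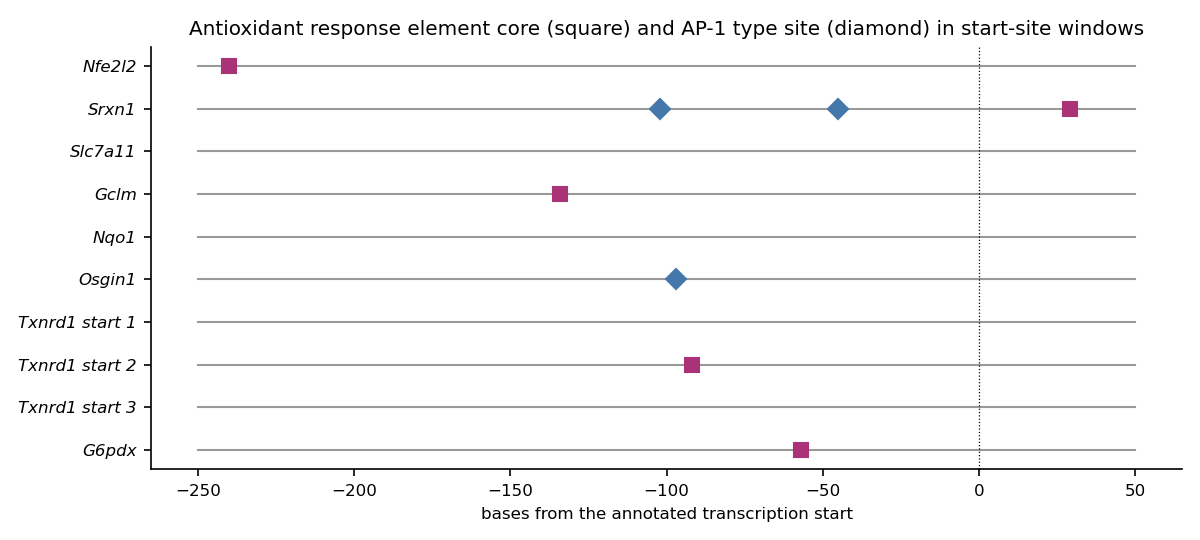
Position in bases from the annotated start (x axis) of each antioxidant response element core (squares) and AP-1 type site (diamonds) in the 10 RefSeq windows of 8 genes (y axis); the dotted line is the start. Srxn1 holds both kinds, with AP-1 type sites 102 and 45 bases before the start and a core 29 bases after it, while Nqo1 and Slc7a11 hold neither.

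Of the 9 genes tested, 4 differed over the weeks, in both directions. At week 7 against week 0, Srxn1, which reactivates oxidised peroxiredoxins, was higher by 1.32 times and Hmox1, the inducible heme oxygenase, was lower by 1.89 times, and the other 7 genes tested were not called. At week 2 against week 0 the quinone reductase gene Nqo1 was higher by 2.83 times, and 0 genes of the list were lower by edgeR, DESeq2 or limma voom, with only Gclc lower at an unadjusted p under 0.05 in edgeR. At week 7 against week 2, Gclc, the catalytic subunit of the enzyme that limits glutathione synthesis, was higher by 1.13 times, and Hmox1 and Nqo1 were lower. A call is an adjusted p under 0.05 in edgeR's quasi-likelihood test with Benjamini-Hochberg adjustment over all genes tested.

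Each of these counts stands beside that of all genes tested. For week 7 against week 0, 2 of 9 genes were called, against 13.8% of all genes, of which 7.58% were higher and 6.23% lower. For week 2 against week 0 it was 1 of 9, against 18.6% of all genes, of which 9.81% were higher and 8.81% lower. With total counts as the only scaling, 68.7% of the genes called in that comparison were higher, against 52.7% with TMM. For week 7 against week 2 it was 3 of 9, against 19.8% of all genes, of which 10.1% were higher and 9.73% lower. Any difference over the 3 weeks was called for 4 of 9 genes (Nqo1, Gclc, Hmox1 and Srxn1), against 26.4% of all genes, and for 2 of 9 with upper-quartile scaling. The median log2 fold change of the 9 genes was 0.12 at week 7 against week 0, 0.0065 at week 2 against week 0 and 0.15 at week 7 against week 2, where the medians of all genes tested were 0.0016, 0.014 and -0.0042. The comparisons share libraries and so are not independent of each other.

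**Figure D2:**
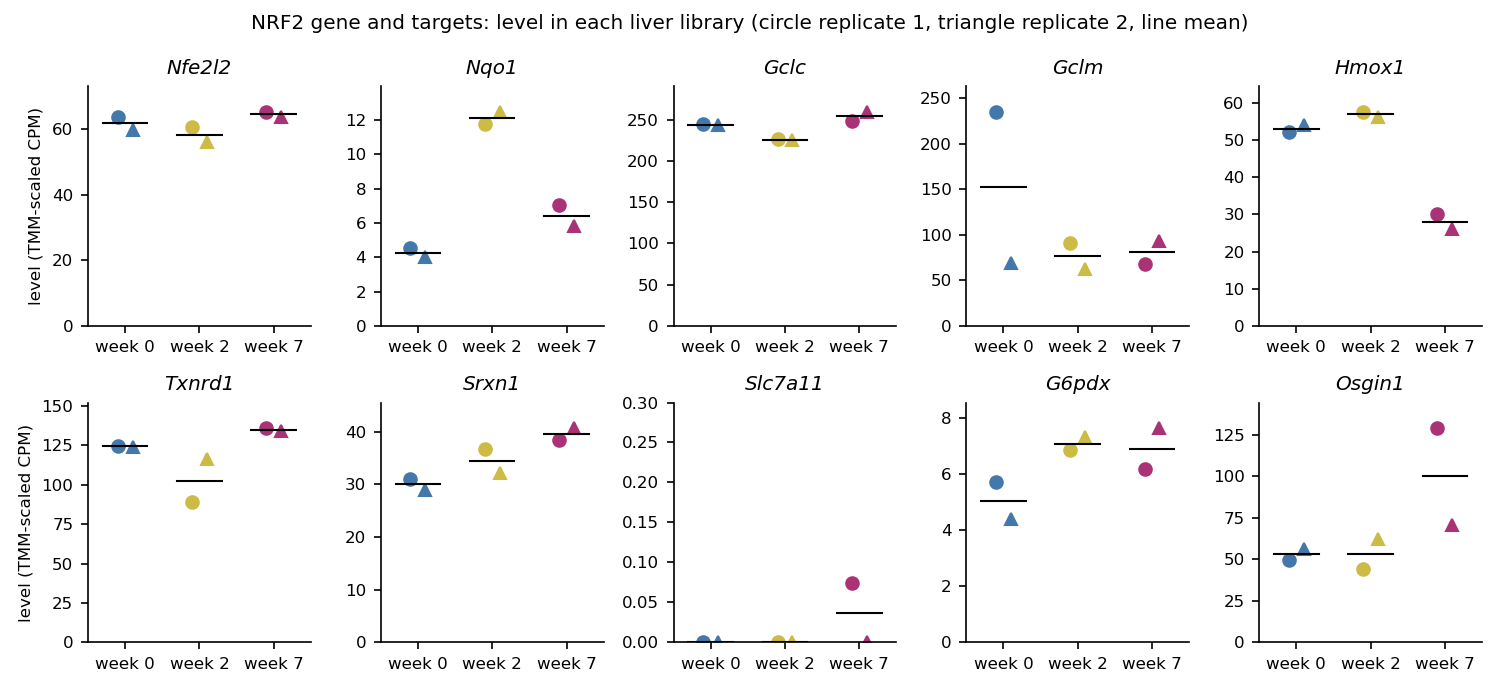
Level of each of the 10 genes in TMM-scaled CPM (y axis, from 0, with its own scale in each panel) in the 6 libraries by week (x axis); circles are replicate 1, triangles replicate 2 and lines the mean of 2 libraries. Hmox1 was at 30.0 and 26.0 CPM at week 7, apart from the other weeks, while the week 0 libraries of Gclm stood at 235 and 68.9 CPM.

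Nfe2l2 (ENSMUSG00000015839, chromosome 2), the regulator itself, had 63.6 and 59.8 CPM at week 0, 60.5 and 55.9 CPM at week 2, and 65.3 and 63.8 CPM at week 7. The libraries of week 0 overlapped those of week 2, and both lay just below those of week 7. Its log2 fold change was 0.06 at week 7 against week 0 (95% interval -0.10 to 0.23, adjusted p = 0.651) and -0.08 at week 2 against week 0 (95% interval -0.25 to 0.08, adjusted p = 0.507). At week 7 against week 2 it was 0.15 (adjusted p = 0.210). NRF2 protein was not measured.

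Hmox1 (ENSMUSG00000005413, chromosome 8) splits heme into biliverdin, carbon monoxide and iron. It had 52.1 and 54.0 CPM at week 0, 57.6 and 56.2 CPM at week 2, and 30.0 and 26.0 CPM at week 7. Both week 7 libraries lay below all 4 others. The mean was 28.0 ± 2.87 CPM at week 7 and 53.1 ± 1.29 CPM at week 0 (SD, n = 2 each), a log2 fold change of -0.92 with an SE of 0.0892 (edgeR adjusted p = 0.000248). Against the 56.9 ± 0.983 CPM of week 2 (SD, n = 2) the week 7 level was lower by 2.03 times (log2 fold change -1.02, edgeR adjusted p = 6.75e-05). The difference at week 2 against week 0 was not called (log2 fold change 0.10, adjusted p = 0.496). Both calls held under all 16 alternatives of scaling, filter, tool, block and left-out library.

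Heme oxygenase is also abundant in Kupffer cells, the resident macrophages of liver, which take up old red cells. Of 11 markers of Kupffer cells and macrophages, 9 were lower and 0 higher at week 7 against week 0, with a median log2 fold change of -0.48. This is 81.8% called, against 13.8% of all genes tested. At week 2 against week 0, 8 were higher and 0 lower (72.7% called, against 18.6%, median log2 fold change 0.57). At week 7 against week 2 all 11 were lower (100% called, against 19.8%, median log2 fold change -1.03). Their summed level was 600.8 and 597.8 CPM at week 0, 868.8 and 882.2 CPM at week 2, and 449.8 and 441.7 CPM at week 7, and none of the 11 was at 0 in any library. The marker sum was highest in the female-typed week 2 libraries, where sex and time cannot be told apart. The part of these cells in the Hmox1 difference was not tested. Of 6 stellate cell and fibroblast markers, 3 were lower and 1 was higher at week 7 against week 0 (66.7% called, against 13.8% of all genes tested). The summed level of 5 erythroid markers was 499.9 and 509.9 CPM at week 7, against 537 and 557 CPM at week 0.

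**Figure D3:**
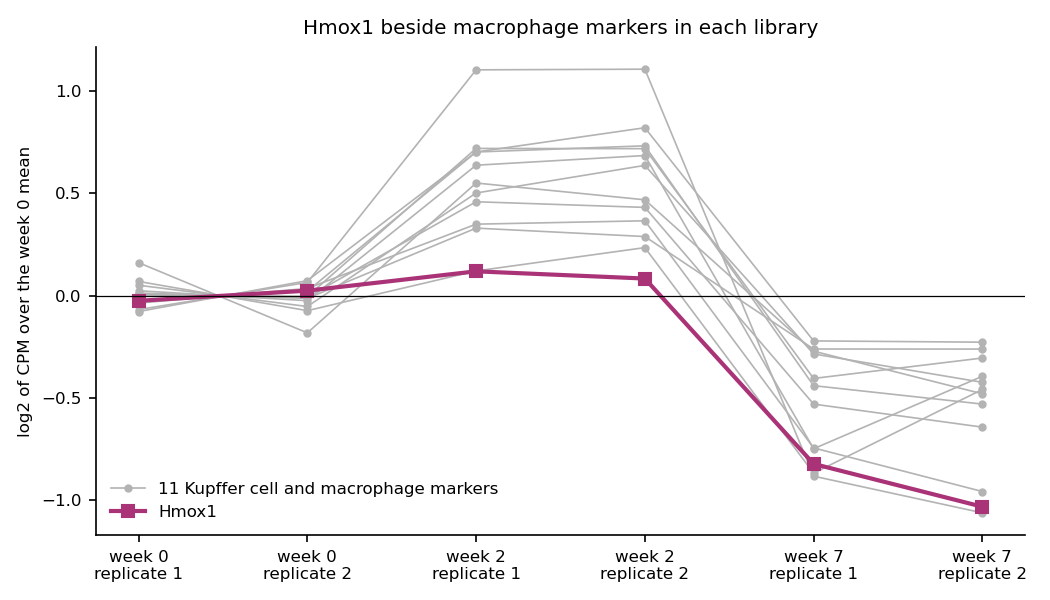
Log2 of the CPM over the mean of week 0 (y axis) in each of the 6 libraries (x axis) for Hmox1 (squares, thick line) and for 11 Kupffer cell and macrophage markers (grey circles). Hmox1 lies near 0 at weeks 0 and 2 and lower in both week 7 libraries. Of the 11 markers, 8 were higher at the female-typed week 2 and 9 were lower at week 7, each against week 0.

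The genes whose levels over the 6 libraries lay nearest to Hmox1 were sought among 9161 genes averaging 5 CPM or more, by the Euclidean distance of log2 CPM centred on each gene's own mean. Fam167b was nearest (distance 0.0753), followed by Slc11a1 (0.162), Fam25c (0.167), Cry1 (0.211) and Hes1 (0.225), where Hmox1 itself lies 1.14 from a flat line. Fam167b averaged 13.1 CPM at week 0, 14.1 CPM at week 2 and 6.92 CPM at week 7. Slc11a1, a metal transporter of macrophages, averaged 9.38 CPM at week 0, 10.9 CPM at week 2 and 5.29 CPM at week 7, and Cry1, a repressor of the circadian clock, averaged 18.2, 20.7 and 10.3 CPM at the same weeks. These distances describe 6 libraries and carry no test.

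Nqo1 (ENSMUSG00000003849, chromosome 8) reduces quinones in a 2-electron step and is a common reporter of NRF2 activity. It had 4.55 and 4.0 CPM at week 0 (227 and 193 counts), 11.7 and 12.5 CPM at week 2 (704 and 739 counts), and 7.02 and 5.81 CPM at week 7 (379 and 297 counts). No library of one week overlapped those of another, and the female-typed week 2 libraries were highest. At week 2 the mean was 12.1 ± 0.519 CPM, against 4.27 ± 0.386 CPM at week 0 (SD, n = 2 each), a log2 fold change of 1.50 with an SE of 0.179 (edgeR adjusted p = 0.000461). At week 7 it was 6.41 ± 0.857 CPM (SD, n = 2), lower than at week 2 by 1.89 times (log2 fold change -0.92, edgeR adjusted p = 0.00652). Between the male-typed weeks the log2 fold change at week 7 against week 0 was 0.59 (95% interval 0.18 to 0.99), which was not called (edgeR adjusted p = 0.0636) and was called with DESeq2 (adjusted p = 0.0411). The 2 calls that involve week 2 held under all 16 alternatives, and sex and time cannot be told apart in them.

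Srxn1 (ENSMUSG00000032802, chromosome 2) encodes sulfiredoxin, which repairs over-oxidised peroxiredoxins. It had 31.1 and 28.9 CPM at week 0, 36.7 and 32.2 CPM at week 2, and 38.5 and 40.7 CPM at week 7. The libraries of the 3 weeks did not overlap. The mean was 39.6 ± 1.56 CPM at week 7 and 30.0 ± 1.52 CPM at week 0 (SD, n = 2 each), a log2 fold change of 0.40 with an SE of 0.0964 (edgeR adjusted p = 0.0268). Without any 1 of the 4 libraries of weeks 0 and 7 the log2 fold change was 0.35 to 0.45 and the call was lost. Its edgeR adjusted p was then 0.0666 without week 0 replicate 1, 0.133 without week 0 replicate 2, 0.0706 without week 7 replicate 1 and 0.119 without week 7 replicate 2. The week 2 level was not called against either other week (adjusted p = 0.202 against week 0, and 0.193 for week 7 against week 2).

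Txnrd1 (ENSMUSG00000020250, chromosome 10) encodes the cytosolic thioredoxin reductase, which returns thioredoxin to its reduced form with NADPH. It had 125 and 124 CPM at week 0, 88.8 and 116 CPM at week 2, and 136 and 134 CPM at week 7. Both week 2 libraries lay below all 4 others, and they stood further apart from each other than the libraries of the other weeks. No comparison was called by edgeR with all libraries. The log2 fold change was 0.12 at week 7 against week 0 (adjusted p = 0.610), -0.28 at week 2 against week 0 (adjusted p = 0.185) and 0.40 at week 7 against week 2 (95% interval 0.10 to 0.69, adjusted p = 0.0731). DESeq2 called the last of these (log2 fold change 0.39, adjusted p = 0.0095). Without week 2 replicate 2, edgeR called both comparisons with week 2 (log2 fold change -0.48 and adjusted p = 0.00275 for week 2 against week 0, 0.60 and 0.000931 for week 7 against week 2), in a fit that assumes the remaining week 2 library to vary like the other groups.

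Gclc and Gclm encode the catalytic and the modifier subunit of glutamate-cysteine ligase, which makes the precursor of glutathione. Gclc (ENSMUSG00000032350, chromosome 9) had 244 and 243 CPM at week 0, 226 and 225 CPM at week 2, and 248 and 259.7 CPM at week 7. The libraries of the 3 weeks did not overlap, with week 2 lowest. At week 7 the mean was 254 ± 8.19 CPM, against 226 ± 0.84 CPM at week 2 (SD, n = 2 each), a log2 fold change of 0.17 with an SE of 0.0410 (edgeR adjusted p = 0.0192). This call was lost under 5 of 16 alternatives, namely upper-quartile scaling (adjusted p = 0.0953), total counts (0.0906) and the fits without week 2 replicate 1 (0.0956), week 2 replicate 2 (0.111) or week 7 replicate 2 (0.0972). Neither Gclc comparison with week 0 was called (adjusted p = 0.409 at week 7 and 0.0994 at week 2).

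Gclm (ENSMUSG00000028124, chromosome 3) had 235 and 68.9 CPM at week 0, 90.5 and 62.2 CPM at week 2, and 67.7 and 93.5 CPM at week 7. Week 0 replicate 1 stood above all 5 other libraries, which overlapped between weeks. It held 11728 counts, and week 0 replicate 2 held 3323, a gap of 3.41 times in CPM. Of 9170 genes averaging 5 CPM or more, 99.5% had a smaller gap between the week 0 libraries. The log2 fold change was -0.91 at week 7 against week 0 (95% interval -3.23 to 1.40, adjusted p = 0.553) and -0.99 at week 2 against week 0 (adjusted p = 0.489). Without week 0 replicate 1 these became 0.23 (adjusted p = 0.818) and 0.15 (adjusted p = 0.877), so the sign of both rests on that library. The week 0 libraries thus had nearly equal levels of Gclc and unlike levels of Gclm. Gclm overlaps the pseudogene Gm6061 and, on the opposite strand, Gm17494, which held at most 70 and 26 counts in a library, and the kit does not mark strand.

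Slc7a11 (ENSMUSG00000027737, chromosome 3) encodes the cystine carrier of the cystine-glutamate exchanger, which brings in cysteine for glutathione. It had 0 counts in 5 libraries and 4 counts in week 7 replicate 1. A count of 0 allows up to 12 counts, taken as 3 read pairs, or 0.200 to 0.249 CPM by library, which covers counting error only. Slc7a11 was not detected beyond this limit at any week, so no fold is given.

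G6pdx (ENSMUSG00000031400, chromosome X) encodes glucose-6-phosphate dehydrogenase, the NADPH-producing entry to the pentose phosphate pathway. It had 5.71 and 4.40 CPM at week 0, 6.87 and 7.33 CPM at week 2, and 6.19 and 7.65 CPM at week 7. All 4 later libraries lay above both week 0 libraries, and those of weeks 2 and 7 overlapped. Neither comparison with week 0 was called (log2 fold change 0.45 and adjusted p = 0.198 at week 7, 0.49 and 0.142 at week 2). G6pdx overlaps Ikbkg on the opposite strand, which held 1071 to 2193 counts per library, and reads of the 2 genes cannot be told apart where they overlap.

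Osgin1 (ENSMUSG00000074063, chromosome 8) encodes oxidative stress induced growth inhibitor 1. It had 49.5 and 56.3 CPM at week 0, 43.9 and 62.3 CPM at week 2, and 129 and 70.9 CPM at week 7. Both week 7 libraries lay above all 4 others, and they stood 1.82 times apart, a gap larger than that of 98.2% of 9170 genes at that week. The log2 fold change at week 7 against week 0 was 0.92 (95% interval -0.23 to 2.06, adjusted p = 0.259), and at week 7 against week 2 it was 0.91 (adjusted p = 0.230). At week 2 against week 0 it was 0.0065 (adjusted p = 0.997).

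**Figure D4:**
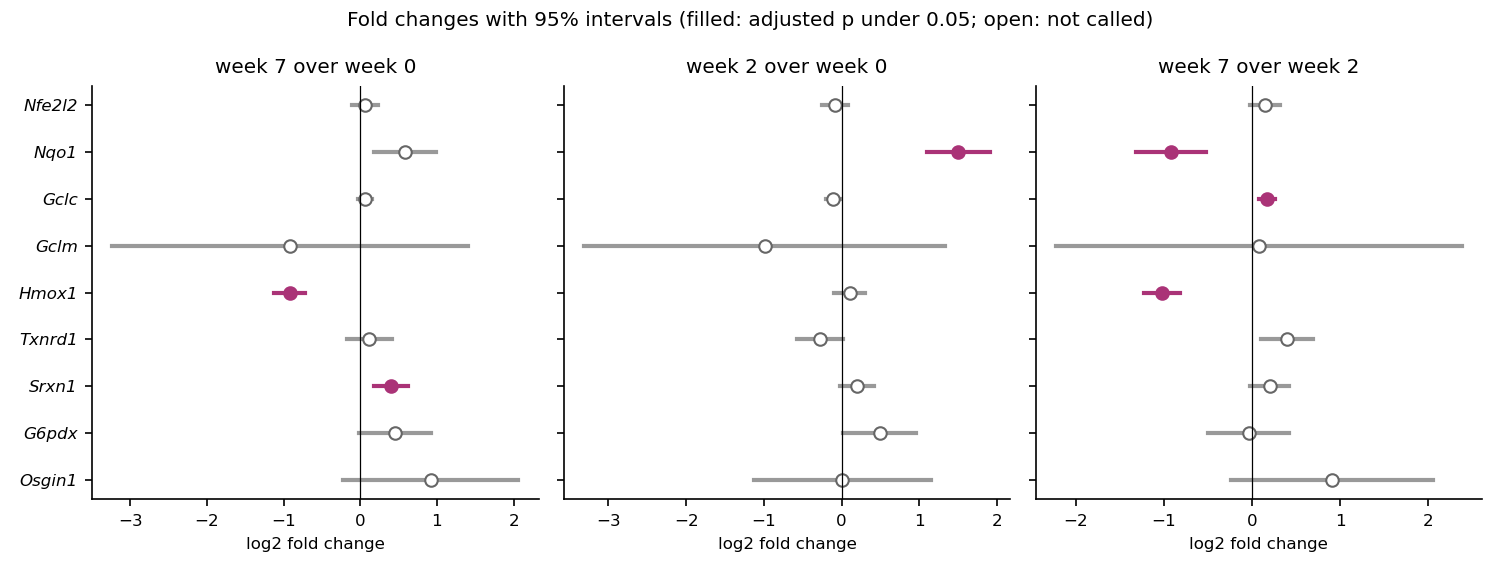
Log2 fold change (x axis) of the 9 genes tested (y axis) at week 7 over week 0, week 2 over week 0 and week 7 over week 2; points are edgeR estimates, lines 95% intervals, and filled points an adjusted p under 0.05. Hmox1 has a log2 fold change of -0.92 with a narrow interval at week 7 over week 0, while that of Gclm, -0.91, has an interval of -3.23 to 1.40.

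Levels were set in order per kilobase of merged exon (GENCODE M21), as mean CPM per kilobase of 2 libraries at each of weeks 0, 2 and 7. Gclc was highest at each week, at 64.7, 59.9 and 67.4 CPM per kilobase. Hmox1 came second at weeks 0 and 2, at 30.3 and 32.5, and stood at 16.0 at week 7. Osgin1 averaged 19.8, 19.9 and 37.3, Txnrd1 17.5, 14.5 and 19.1, Nfe2l2 16.3, 15.3 and 17.0, and Gclm 24.1, 12.1 and 12.8 CPM per kilobase at these weeks. The order within this middle range was not firm, since week 0 replicate 1 of Gclm lay above the Hmox1 mean. At week 7, Hmox1 (17.2 and 14.8) overlapped Nfe2l2 (17.2 and 16.8), and Srxn1 (13.6 and 14.4) overlapped Gclm (10.8 and 14.9), and at week 0 Gclm spanned 10.9 to 37.4 CPM per kilobase. Srxn1 averaged 10.6, 12.2 and 14.0 CPM per kilobase. Nqo1 averaged 2.75, 7.80 and 4.13 and G6pdx 1.64, 2.31 and 2.25, and Slc7a11 was lowest at every week.

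The remaining genes of the pathway were counted in 9 lists, with 94 distinct genes tested. At week 7 against week 0, 21 were higher and 15 lower (38.3% called, against 13.8% of all genes tested). At week 2 against week 0, 26 were higher and 19 lower (47.9%, against 18.6%), and at week 7 against week 2, 21 were higher and 22 lower (45.7%, against 19.8%). These shares are a description and carry no test, and the genes tested were not matched to the lists for level. Calls included small changes in abundant genes and large ones in genes of low level. Catalase, Cat, at 3071 CPM at week 0, was called at week 7 with a log2 fold change of -0.25. Psat1, at 0.578 CPM at week 0, was called at week 7 with a log2 fold change of 3.10. The part of level in these shares was not tested. The lists were also chosen with earlier results of these data known. Higher and lower calls were thus both present in every comparison of weeks. In all lists, a comparison with the female-typed week 2 is of sex and time together. Shares called in the lists below stand against these 13.8%, 18.6% and 19.8% of all genes tested, in that order. They were 38.1%, 57.1% and 47.6% for other NRF2 targets and 25%, 41.7% and 50% for glutathione synthesis and use. Thioredoxin and peroxiredoxin genes had 25%, 33.3% and 33.3%, and NADPH and pentose phosphate enzymes 30%, 40% and 50%. Superoxide and peroxide removal had 75%, 100% and 75%, and heme breakdown 0%, 0% and 33.3%. Glutathione transferases had 58.8%, 58.8% and 64.7%, and ATF4 targets 35.7%, 50% and 28.6%.

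Of 12 regulators and partners of NRF2, 2 were higher and 0 lower at week 7 against week 0 (median log2 fold change 0.23). At week 2 against week 0, 2 were higher and 1 lower (median 0.07), and at week 7 against week 2, 1 in each direction (median 0.16). The shares called were 16.7%, 25% and 16.7%, near the 13.8%, 18.6% and 19.8% of all genes tested. With total counts, no filter, counts divided by 4 or DESeq2, 5 were higher at week 7 against week 0. All genes called in either direction there numbered 2105, 2326, 2309 and 2705 in these settings, against 2123 in the main fit. Maff and Mafk, small MAF proteins that pair with NRF2 on DNA, were the 2 called higher at week 7 against week 0 in the main fit. Maff averaged 22.4 ± 4.07 CPM at week 7 and 8.27 ± 0.822 CPM at week 0 (SD, n = 2 each), a ratio of 2.70 (edgeR adjusted p = 0.00203). Mafk was higher than at week 0 both at week 7 (12.8 ± 0.329 CPM against 7.20 ± 0.474 CPM, edgeR adjusted p = 0.00639) and at week 2 (12.6 ± 1.16 CPM, edgeR adjusted p = 0.00495). Nfe2l1, a relative of NRF2, was higher at week 2 against week 0 by 1.50 times (edgeR adjusted p = 0.00112). Bach1, which competes with NRF2 for its sites and represses Hmox1, averaged 31.9 CPM at week 2 and 44.5 CPM at week 0 (edgeR adjusted p = 0.0485). That call was lost under 9 of 16 alternatives, 5 of which left out 1 library, and the adjusted p ran up to 0.199 without week 0 replicate 1. At week 7 Bach1 averaged 41.3 CPM, against 44.5 CPM at week 0, and was not called (edgeR adjusted p = 0.698). BACH1 protein was not measured, and its part in the Hmox1 difference was not tested.

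Among 21 other NRF2 targets tested of 22 listed, 4 were higher and 4 lower at week 7 against week 0 (median log2 fold change -0.04), 5 higher and 7 lower at week 2 against week 0 (median -0.02), and 7 higher and 3 lower at week 7 against week 2 (median 0.07). Cyp2a5, a cytochrome P450 of coumarin metabolism, averaged 1085 ± 16.5 CPM at week 7 and 503 ± 39.0 CPM at week 0 (SD, n = 2 each), a ratio of 2.16 (edgeR adjusted p = 2.96e-06). Its reads may be shared with near-identical Cyp2a genes, so its value is uncertain. Abcc2, the canalicular exporter of conjugates, was higher at week 7 against week 0 (439 ± 7.30 CPM against 304 ± 2.17 CPM, edgeR adjusted p = 3.6e-05), whereas Abcc3, the basolateral exporter, was lower (52.6 ± 1.19 CPM against 107 ± 4.05 CPM, edgeR adjusted p = 1.58e-05). Me1, the cytosolic malic enzyme, was lower at week 7 against week 0 (152 ± 1.79 CPM against 199 ± 2.44 CPM, edgeR adjusted p = 0.000593). In the week 2 libraries Aox1, an aldehyde oxidase, was lower than at week 0 by 3.02 times (edgeR adjusted p = 1.74e-06) and Ephx1, the microsomal epoxide hydrolase, by 1.68 times (edgeR adjusted p = 2.5e-06).

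Of 12 genes of glutathione synthesis and use tested of 13 listed, 1 was higher and 2 lower at week 7 against week 0 (median log2 fold change -0.06), 4 higher and 1 lower at week 2 against week 0 (median 0.13), and 1 higher and 5 lower at week 7 against week 2 (median -0.24). Gpx1, the main glutathione peroxidase of liver, averaged 590.2 ± 16.1 CPM at week 7 and 709 ± 11.1 CPM at week 0 (SD, n = 2 each, edgeR adjusted p = 0.00234). Slc3a2, the heavy chain that partners Slc7a11, was higher at week 2 against week 0 by 1.51 times (50.3 ± 0.292 CPM against 33.3 ± 2.23 CPM, edgeR adjusted p = 0.00585). The chain pairs with other carriers as well, and Slc7a11 itself had 0 counts in both week 2 libraries. Among 12 thioredoxin and peroxiredoxin genes, 2 were higher and 1 lower at week 7 against week 0 (median log2 fold change -0.08), 3 higher and 1 lower at week 2 against week 0 (median 0.15), and 1 higher and 3 lower at week 7 against week 2 (median -0.14). Prdx3, the mitochondrial peroxiredoxin, averaged 96.3 ± 2.72 CPM at week 7 and 73.7 ± 1.21 CPM at week 0 (SD, n = 2 each, edgeR adjusted p = 0.0036). Txnip, which binds and inhibits thioredoxin, was lower at week 2 against week 0 by 2.28 times (edgeR adjusted p = 0.0109).

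A list of 10 enzymes covered NADPH production and the pentose phosphate pathway, and not all of them, such as Rpe and Tkt, make NADPH. Of these 10, 1 was higher and 2 lower at week 7 against week 0 (median log2 fold change 0.0057). At week 2 against week 0, 2 were higher and 2 lower (median -0.02), and at week 7 against week 2, 2 were higher and 3 lower (median 0.03). Idh2, the mitochondrial isocitrate dehydrogenase, averaged 135 ± 3.78 CPM at week 2 and 59.5 ± 5.19 CPM at week 0 (SD, n = 2 each), a ratio of 2.27 (edgeR adjusted p = 6.11e-06), and at week 7 it was higher than at week 0 by 1.36 times (edgeR adjusted p = 0.00393). Of the 4 genes that remove superoxide and peroxide, 0 were higher and 3 lower at week 7 against week 0 (median log2 fold change -0.28), 2 higher and 2 lower at week 2 against week 0 (median 0.0082), and 1 higher and 2 lower at week 7 against week 2 (median -0.30). Sod1, the cytosolic superoxide dismutase, averaged 919.9 ± 16.2 CPM at week 7 and 1132 ± 12.2 CPM at week 0 (SD, n = 2 each, edgeR adjusted p = 0.000313), and catalase, Cat, averaged 2579 ± 57.9 CPM at week 7 and 3071 ± 13.0 CPM at week 0 (SD, n = 2 each, edgeR adjusted p = 0.000383). Of the 3 other genes of heme breakdown, 0 were called in either comparison with week 0 by edgeR, DESeq2 or limma voom, and 1 in each had an unadjusted p under 0.05 in edgeR. These were Blvrb, a biliverdin reductase, at week 7 (132 CPM against 117 CPM, adjusted p = 0.0973), and Hmox2, the constitutive heme oxygenase, at week 2 (32.4 CPM against 39.4 CPM, adjusted p = 0.156). Blvrb was higher at week 7 against week 2 (132 CPM against 111 CPM, edgeR adjusted p = 0.0188), a call lost with total counts as the only scaling and without week 2 replicate 1, week 2 replicate 2 or week 7 replicate 1 (adjusted p up to 0.115).

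**Figure D5:**
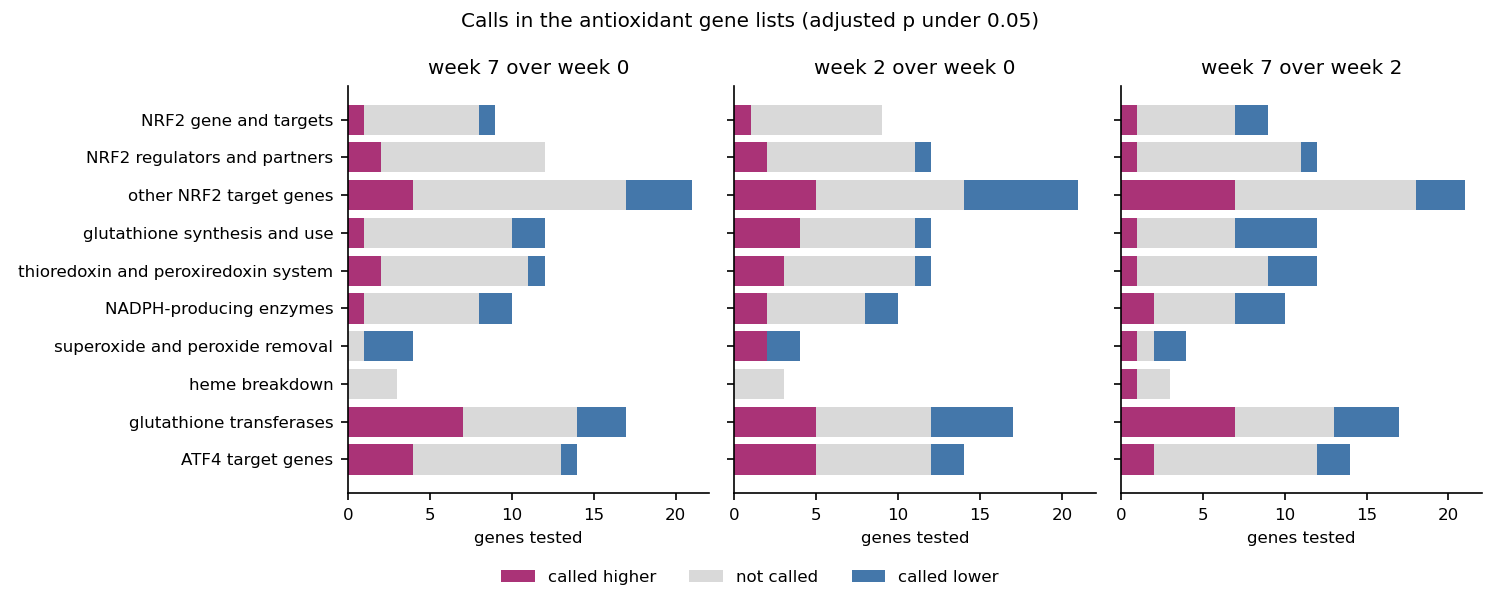
Number of genes tested (x axis) in each list (y axis) that were called higher, not called or called lower (edgeR adjusted p under 0.05) at week 7 over week 0, week 2 over week 0 and week 7 over week 2. In the list of 21 other NRF2 targets, 4 genes were higher and 4 lower at week 7 over week 0. The list labelled NADPH-producing enzymes also holds pentose phosphate enzymes that make no NADPH.

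Of 17 glutathione transferases, 7 were higher and 3 lower at week 7 against week 0 (median log2 fold change 0.09), 5 in each direction at week 2 against week 0 (median -0.07), and 7 higher and 4 lower at week 7 against week 2 (median 0.18). Single members of this family can share reads and are uncertain. Gstm3 was higher at week 7 against week 0 by 4.01 times (edgeR adjusted p = 8.51e-08) and Gstm2 by 2.58 times (edgeR adjusted p = 6.68e-06), while Gsta3 was lower (edgeR adjusted p = 0.000201). Gstp1 was lower at the female-typed week 2 against week 0 by 4.20 times (edgeR adjusted p = 1.85e-08), where sex and time cannot be told apart. It had 499 CPM at week 7, against 509 CPM at week 0. Slc7a11 is also a target of ATF4, the factor of the amino acid response, and of 14 genes tested in the list of Atf4 and its other targets 4 were higher and 1 lower at week 7 against week 0 (median log2 fold change 0.31), 5 higher and 2 lower at week 2 against week 0 (median 0.61), and 2 in each direction at week 7 against week 2 (median 0.21). Psat1 and Phgdh, enzymes of serine synthesis, were among the 4 that rose at week 7. Psat1 averaged 4.99 ± 0.669 CPM at week 7 and 0.578 ± 0.231 CPM at week 0 (SD, n = 2 each, edgeR adjusted p = 0.000685). Phgdh counts were 5 and 0 at week 0, within the limit of 12 counts. They were 28 and 40 at week 2 and 280 and 140 at week 7 (edgeR adjusted p = 0.00193 for week 7 against week 0, and 0.0608 with limma voom).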

How the data were processed

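Poly-A RNA of 6 mouse liver samples was sequenced as paired ends from TruSeq V2 libraries, per the labels' protocols. Bowtie 0.12.2 and mm8 are named in the submitters' processing notes, with no role. How reads were counted, and on which annotation, is not given in the sources used here. Values that the authors deposited are estimated counts by Ensembl gene, whole in every cell, so rounding changed 0 of them. A read pair was taken as about 4 deposited counts, from steps in the low values, and 12 counts as the limit that a count of 0 allows. Some identifiers postdate mm8, so the build is unsure and the file's genes are given without coordinates. Of the identifiers, 54409 matched GENCODE M21 symbols.

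Tests used edgeR 4.0.16 in R 4.3.3: filterByExpr, TMM and a robust quasi-likelihood fit with 1 coefficient per week on the 6 libraries, which leaves 3 residual degrees of freedom (common BCV 0.209), tested 2-sided with Benjamini-Hochberg adjustment over 15368 genes. The fit was also run on simulated counts with the same spread set for every gene, which does not give its error rate on these data. Levels are CPM after TMM, and ratios are of mean CPM. Alternatives were other scalings and filters, counts divided by 4, a replicate block, only the 4 libraries compared, each library left out, DESeq2 1.42.0 and limma 3.58.1 (voom). Motifs were searched with Python 3.11.15. The 10 genes and all lists were chosen with earlier results of these data known. List genes eligible to be named were up to 2 called in each direction and comparison by smallest adjusted p, or, with none called, the gene of smallest p; some of them are printed. Bach1 at week 7, Gstp1 at week 7 and the sex-typed genes are given beside a result that they touch.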

Additional observations from a re-analysis of the deposited data

How the results depend on the processing

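The calls of Hmox1 (week 7 against week 0 and week 2) and Nqo1 (week 2 against week 0, week 7 against week 2) held under all 16 alternatives, whereas those of Srxn1 and Gclc were lost under 4 and 5. The number of the 9 genes called over any week, 4, was 2 with upper-quartile scaling and 2 with the replicate block, and 2 to 4 with a library left out; the fit of only 4 libraries gives no such value. With a library left out, all genes called numbered 1298 to 1856 at week 7 against week 0 (2123 with all libraries), 1801 to 2752 at week 2 against week 0 (2862), and 1842 to 2961 at week 7 against week 2 (3040), with 1 to 2, 1 to 2 and 2 to 3 of the 9 genes called in these comparisons. Log2 fold changes that turned were those of Nfe2l2 at week 2 against week 0 with total counts (0.0077) and Osgin1 at week 2 against week 0 with limma voom (-0.013). With a library left out, Osgin1 at week 2 against week 0 ran from -0.27 to 0.24, Gclm from -1.54 to 0.23 at week 7 against week 0, from -1.62 to 0.15 at week 2 against week 0 and from -0.17 to 0.38 at week 7 against week 2, and G6pdx at week 7 against week 2 from -0.20 to 0.11; the cause was not tested. The differences between replicates were little shared between weeks: across 9170 genes, they correlated at -0.0099 (weeks 0 and 2), -0.00015 (weeks 0 and 7) and -0.12 (weeks 2 and 7). Such values cannot tell whether the replicate numbers pair the samples. With the block, 1702, 2436 and 2620 genes were called at week 7 against week 0, week 2 against week 0 and week 7 against week 2. Of 78 calls of list genes outside the 10 that were eligible to be named, 53 held under every alternative and 25 were lost under at least 1. With 2 libraries a week, precision differs by gene: the intervals given for Gclm and Osgin1 at week 7 against week 0 hold changes in either direction.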
